A study of Mus musculus with 6 samples.

Results

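The visual cycle returns the light-bleached chromophore of the photoreceptors to its active form. Rods and cones reduce all-trans retinal to retinol, carrier proteins move it to the pigment epithelium, and the pigment epithelium esterifies, isomerizes and re-oxidizes it to 11-cis retinal. Müller glia hold part of the carrier and enzyme set as well. The 10 genes examined here encode retinoid binding proteins, dehydrogenases, other enzymes and transporters. They are *Rbp3*, *Abca4*, *Rdh8*, *Rdh11*, *Rdh12*, *Rlbp1*, *Rpe65*, *Lrat*, *Rdh5* and *Stra6*, taken by symbol from the 31169 genes of the deposited count table. Each symbol matched 1 gene, and all 10 were deep enough to be tested.

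Whole retina of C57BL/6 mice was collected at 2 months of age, 4 weeks after an intracameral injection at 1 month, of 1 μl by the sample records. The study's methods give another volume. The injection held saline in one group and microbeads of 15 μm diameter, which obstruct aqueous outflow and raise intraocular pressure, in the other. Each group had 3 poly(A) RNA libraries in the deposited data, while the study's figure legend gives a larger number of retinas a group. Both eyes were injected according to the study's methods. The labels do not say whether the retinas came from separate animals, so the *p*-values measure the spread between these libraries. Whole retina holds photoreceptors and Müller glia, while the pigment epithelium is a separate layer that can come away with the retina in part. In such tissue, fewer cells of a type and less RNA per cell cannot be told apart.

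The saline libraries held 36085737 to 46481382 counts and the microbead libraries 13574949 to 19834366. Mitochondrial genes took 3.19 to 3.57% of the saline counts and 8.90 to 10.6% of the microbead counts. Saline replicate 3 stood apart by its lens genes, which summed to 366 counts per 1000000 (CPM) over the 7 lens markers in the table, against 29.1 and 1.6 CPM in the other saline libraries and at most 1.82 CPM after microbead injection. Saline replicate 1 was low in retinal ganglion cell markers, at 410 CPM against 962 to 1400 CPM in the other 5 libraries. CPM are relative to library sizes scaled by the TMM method of edgeR throughout. A count of 3, taken as the detection limit, was 0.0622 to 0.217 CPM, and the lowest count among the 10 genes was 25, for *Lrat* in saline replicate 1. Sequencing libraries of the 2 groups carry names of different series, so series and injection cannot be told apart.

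Promoter sequence is shown for the 2 genes whose groups did not overlap, *Rbp3* and *Abca4*, and for *Rpe65* and *Lrat*, which varied most between libraries. Sequences are from the RefSeq table of GRCm38.p6 and run 5′ to 3′ on the strand of the gene, ending just before the first exon base annotated by RefSeq or GENCODE. Capitals mark 3 motifs searched on both strands. The first is TAATCC, which reads as GGATTA on the other strand and is the core bound by the photoreceptor and pigment epithelium factors CRX and OTX2. The next is CATGTG, which reads as CACATG on the other strand and is an E-box of the kind that MITF binds. The last is TGCTGA, which reads as TCAGCA on the other strand and is part of the site of the rod factor NRL. The motifs do not overlap each other in the stretches shown.

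*Rbp3*, + strand, chr14:33953753-33954002: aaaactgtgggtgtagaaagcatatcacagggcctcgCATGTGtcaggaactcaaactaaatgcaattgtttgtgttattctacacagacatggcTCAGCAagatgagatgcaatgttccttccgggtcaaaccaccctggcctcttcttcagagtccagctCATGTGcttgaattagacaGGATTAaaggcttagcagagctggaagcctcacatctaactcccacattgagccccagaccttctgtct
*Abca4*, + strand, chr3:122044210-122044442: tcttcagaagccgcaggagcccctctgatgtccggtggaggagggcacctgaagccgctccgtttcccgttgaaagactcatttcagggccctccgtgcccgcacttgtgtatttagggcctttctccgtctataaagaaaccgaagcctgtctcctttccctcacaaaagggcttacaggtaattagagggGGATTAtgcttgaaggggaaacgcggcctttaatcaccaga
*Rpe65*, + strand, chr3:159598931-159599174: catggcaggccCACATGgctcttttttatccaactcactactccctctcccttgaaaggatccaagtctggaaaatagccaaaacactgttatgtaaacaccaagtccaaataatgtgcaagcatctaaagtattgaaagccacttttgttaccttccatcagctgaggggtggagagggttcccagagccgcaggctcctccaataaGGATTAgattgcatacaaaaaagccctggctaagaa
*Lrat*, - strand, chr3:82903975-82904224: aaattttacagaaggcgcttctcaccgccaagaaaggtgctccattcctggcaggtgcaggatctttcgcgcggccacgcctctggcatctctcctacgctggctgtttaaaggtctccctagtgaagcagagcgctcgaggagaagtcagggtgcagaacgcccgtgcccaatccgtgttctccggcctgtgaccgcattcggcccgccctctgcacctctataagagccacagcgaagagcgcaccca

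The TAATCC core began 69 bases before the RefSeq start of *Rbp3*, 58 before that of *Abca4* and 42 before that of *Rpe65*, each time on the opposite strand. Of the 14 annotated starts of the 10 genes, 3 held it within 250 bases upstream, while 6.25% of all 32851 promoters did. CATGTG was found at 3 of the 14 starts (*Rbp3*, *Rlbp1* and *Rpe65*; 12.3% of all promoters) and TGCTGA at 4 (*Rbp3*, *Rdh12*, *Rlbp1* and 1 of 4 starts of *Stra6*; 16.1% of all promoters). The *Lrat* stretch held none of these letters. A match is a description of the sequence and was not tested for binding.

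With edgeR's quasi-likelihood test, 0 of the 10 genes had an adjusted *p*-value under 0.05, where 12.8% of the 17707 genes tested did. At an unadjusted *p* under 0.05 there were 3 (*Rbp3*, *Abca4* and *Rdh5*), against 31.4% of all tested genes. DESeq2, the tool named in the study's methods, called the same 3 genes at an adjusted *p* under 0.05, against 17.0% of the genes to which it gave an adjusted value. The study also required a fold change over 2, which was not applied here. The DESeq2 log2 fold changes were -0.81 for *Rbp3*, -0.61 for *Abca4* and 1.28 for *Rdh5*, so only *Rdh5* exceeded it. Without a filter on low counts, edgeR called *Rbp3* and *Rdh5*, against 11.3% of all genes. The groups did not overlap for 2 of the 10, both lower after microbead injection, against 37.8% of all tested genes in either direction and 18.9% in that direction. The median log2 fold change was 0.02 over the 10 genes and -0.03 over all tested genes.

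**Figure D1:**
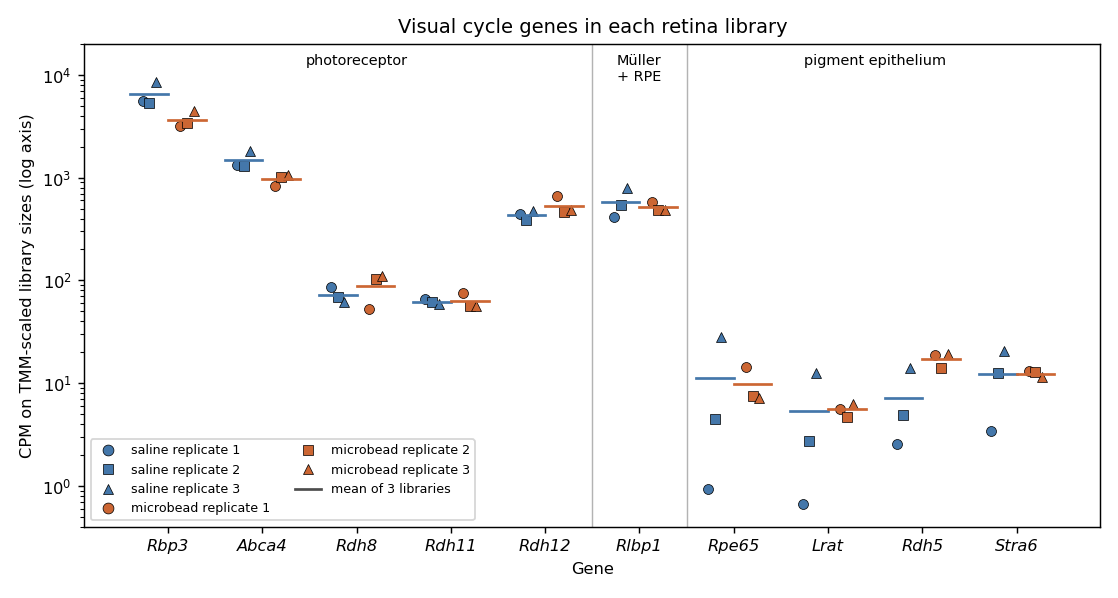
CPM of the 10 genes (log axis) in each of the 3 saline (blue) and 3 microbead (orange) libraries, ordered by the cells that mainly express them, with a bar at each group's mean. The saline points of *Rpe65* run from 0.930 to 28.4 CPM, while those of *Rdh11* lie between 59.3 and 66.2 CPM.

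*Rbp3* encodes the interphotoreceptor retinoid-binding protein, which photoreceptors secrete to carry retinoids across the space to the pigment epithelium. Its level was 5626, 5314 and 8476 CPM in saline-injected and 3203, 3411 and 4405 CPM in microbead-injected retina. Each microbead library was below each saline library, and saline replicate 3 was the highest of the 6. The means were 6472 ± 1743 and 3673 ± 642 CPM (SD, n = 3 each), and the log2 fold change was -0.82 (standard error 0.24, 95% interval -1.35 to -0.28, adjusted *p* = 0.0513 from edgeR). The value was -0.58 (adjusted *p* = 0.110 from edgeR) without saline replicate 3 and -0.91 (adjusted *p* = 0.0380 from edgeR) without saline replicate 1. DESeq2 gave an adjusted *p*-value of 0.0109, and edgeR gave 0.0207 without the filter and 0.048 with GC content and length as an offset. *Rbp3* did not pass in the other settings, where edgeR gave, for example, 0.0529 with a block on replicate number, 0.0615 without mitochondrial genes and 0.154 without microbead replicate 2.

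*Abca4* encodes the outer segment transporter that clears retinal bound to phosphatidylethanolamine from the disc membrane. Its levels were 1314, 1310 and 1807 CPM in saline and 826, 1014 and 1051 CPM in microbead retina. The groups again did not overlap, and saline replicate 3 was again the highest library. The log2 fold change was -0.62 (standard error 0.20, 95% interval -1.07 to -0.16, adjusted *p* = 0.0718 from edgeR), and DESeq2 gave an adjusted *p* of 0.0353. The value was -0.47 (adjusted *p* = 0.137 from edgeR) with the GC and length offset and -0.45 (adjusted *p* = 0.172 from edgeR) without saline replicate 3. *Abca4* and *Rbp3* followed each other across the 6 libraries (Pearson's r = 0.98 of log2 CPM, a description over libraries of 2 groups).

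Markers of rods were compared beside these 2 genes. The 16 rod markers summed to 77065 to 101385 CPM in saline and 68441 to 83976 CPM in microbead libraries, which overlap, and none of the 4 defining markers was at 0. Of the 16, 1 passed the test, the rod transcription factor *Nrl* (log2 fold change -0.97, SE 0.20, adjusted *p* = 0.0192 from edgeR).

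None of the 3 photoreceptor dehydrogenases passed the edgeR test, and the groups overlapped for each. *Rdh8*, which reduces all-trans retinal in the outer segment, was at 87.0, 68.6 and 61.9 CPM in saline and 53.0, 104 and 110 CPM in microbead retina. Microbead replicate 1 was the lowest of all 6 libraries and the other microbead libraries the highest. For *Rdh8* the log2 fold change was 0.29 (95% interval -0.32 to 0.90, adjusted *p* = 0.498 from edgeR), and 0.56 (adjusted *p* = 0.106 from edgeR) without microbead replicate 1.

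*Rdh12*, a dehydrogenase of the inner segment that clears retinal and other aldehydes, was at 445, 383 and 472 CPM in saline and 656, 463 and 488 CPM in microbead retina. Microbead replicate 1 was here the highest library, and the groups overlapped. Its log2 fold change was 0.31 (95% interval -0.13 to 0.74, adjusted *p* = 0.312 from edgeR), and it was 0.13 without microbead replicate 1. *Rdh11*, a related reductase of photoreceptors and other cells, was at 66.2, 61.4 and 59.3 CPM in saline and 75.9, 56.0 and 56.4 CPM in microbead retina. The saline standard deviation of log2 CPM, 0.08, was among the smallest, above that of 8.97% of tested genes. The log2 fold change was 0.01 (95% interval -0.39 to 0.41, adjusted *p* = 0.977 from edgeR), and below 0 when microbead replicate 1 (-0.15) or saline replicate 3 (-0.03) was left out.

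*Rdh11* and *Rdh12* are neighbors on chromosome 12, where *Rdh11* spans 79174337 to 79192293 on the reverse strand and *Rdh12* spans 79208914 to 79222665 on the forward strand in GENCODE vM21. No stretch of 100 bases in their transcripts occurs in the transcripts of another gene. The *Rdh12* to *Rdh11* ratio of CPM was 6.73, 6.23 and 7.96 in saline and 8.64, 8.27 and 8.65 in microbead libraries.

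*Rlbp1* encodes the cellular retinaldehyde-binding protein of Müller glia and pigment epithelium. Its level was 416, 542 and 786 CPM in saline and 584, 488 and 484 CPM in microbead retina. Saline replicate 3 was the highest and saline replicate 1 the lowest of the 6 libraries, with the microbead libraries between them. The log2 fold change was -0.16 (95% interval -0.70 to 0.37, adjusted *p* = 0.679 from edgeR), and 0.11 without saline replicate 3. The defining Müller glia markers *Glul*, *Slc1a3*, *Aqp4* and *Kcnj10* summed to 2449, 3602 and 5450 CPM in saline and 3281, 3235 and 2792 CPM in microbead libraries, with saline replicate 3 highest and saline replicate 1 lowest as well, and none was at 0. Over all 16 Müller markers the sums were 7271 to 11138 CPM in saline and 5571 to 7037 CPM in microbead libraries, which do not overlap. By sign alone, 14 of the 16 had a log2 fold change below 0 and 2 above (median -0.42, against -0.03 over all tested genes). Of these 16, 4 were lower past the threshold, with the largest differences in the glial transcription factor *Sox9* (log2 fold change -1.46, adjusted *p* = 0.0373 from edgeR) and in *Crym* (-1.41, adjusted *p* = 0.0387 from edgeR). Their part in the *Rlbp1* values was not tested.

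The 4 genes of the pigment epithelium were the least abundant and the most variable between saline libraries. *Rpe65*, the isomerohydrolase that makes 11-cis retinol, was at 0.930, 4.52 and 28.4 CPM in saline and 14.4, 7.58 and 7.21 CPM in microbead retina, from counts of 35, 218 and 997 and of 280, 105 and 111. The highest saline library held 30.6 times the level of the lowest, and the 3 microbead libraries all lay between them, within 2.00-fold of each other. Its saline standard deviation of log2 CPM, 2.42, exceeded that of 99.8% of tested genes, whose median was 0.26. The log2 fold change was -0.21 (standard error 0.89, 95% interval -2.21 to 1.79, adjusted *p* = 0.899 from edgeR). It was 1.83 (adjusted *p* = 0.0815 from edgeR) without saline replicate 3 and -0.75 (adjusted *p* = 0.406 from edgeR) without saline replicate 1.

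*Lrat*, which esterifies retinol and so supplies the substrate of RPE65, was likewise lowest in saline replicate 1 and highest in saline replicate 3. It was at 0.664, 2.74 and 12.6 CPM in saline and 5.66, 4.69 and 6.30 CPM in microbead retina. The saline libraries spanned 18.9-fold and the microbead libraries 1.34-fold. With all 6 libraries, the log2 fold change was 0.06 (95% interval -1.69 to 1.82, adjusted *p* = 0.967 from edgeR), 1.69 without saline replicate 3, and below 0 when saline replicate 1 (-0.46), saline replicate 2 (-0.26) or microbead replicate 3 (-0.05) was left out.

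*Stra6*, the membrane receptor through which the pigment epithelium takes up retinol from its serum carrier, was at 3.45, 12.5 and 20.5 CPM in saline and 13, 12.9 and 11.4 CPM in microbead retina. Its microbead libraries lay within 1.14-fold of each other, beside 5.95-fold in saline. The log2 fold change was 0.03 (95% interval -1.08 to 1.14, adjusted *p* = 0.978 from edgeR), 0.63 without saline replicate 3, and on the other side of 0 without saline replicate 1 (-0.42) or microbead replicate 1 (-0.01).

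*Rdh5*, which oxidizes 11-cis retinol to 11-cis retinal, had the largest fold change of the 10 genes, though it did not pass the test. It was at 2.55, 4.87 and 14.1 CPM in saline and 18.9, 13.9 and 19.2 CPM in microbead retina. Saline replicate 3 alone reached the microbead range, just above microbead replicate 2. The means were 7.16 ± 6.09 and 17.3 ± 2.96 CPM (SD, n = 3 each), and the log2 fold change was 1.28 (standard error 0.52, 95% interval 0.12 to 2.44, adjusted *p* = 0.125 from edgeR). Without saline replicate 3 it was 2.22 (adjusted *p* = 0.00967 from edgeR), and without saline replicate 1 it was 0.88 (adjusted *p* = 0.149 from edgeR). The adjusted *p*-value was 0.0426 from DESeq2 and 0.00320 from edgeR without the filter on low counts. From edgeR it was 0.199 with the GC and length offset and 0.295 without microbead replicate 3.

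Part of the *Rdh5* count is uncertain, because the gene overlaps *Bloc1s1* on the same strand of chromosome 10. Of the 100-base stretches of its transcripts, 14.9% also occur in those of *Bloc1s1*. *Bloc1s1*, a subunit of lysosome-related organelle complexes, was at 5.90, 6.14 and 7.87 CPM in saline and 16.2, 7.51 and 9.55 CPM in microbead retina (log2 fold change 0.75, adjusted *p* = 0.141 from edgeR). *Stra6* also overlaps a gene on its own strand, *Gm16131*. The gene bodies of *Lrat*, *Stra6* and *Abca4* overlap genes on the opposite strand, and whether strand was used in counting is not given in the sources used here, so reads of such partners cannot be told apart. For the other 9 genes, 0% of the 100-base stretches occur in the transcripts of a different gene. Transcripts were compared in their own direction only, so overlap with partners on the opposite strand could not show in this value.

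Pigment epithelium markers outside these genes varied between the libraries in a like way. The 6 defining markers *Best1*, *Mlana*, *Pmel*, *Tyrp1*, *Slc16a8* and *Kcnj13* summed to 2.92, 5.66 and 18.1 CPM in saline and 10.7, 11.4 and 8.45 CPM in microbead libraries, and *Mlana* and *Kcnj13* had 0 counts in saline replicate 1. *Ttr*, the retinol carrier partner transthyretin, was at 5.45, 26.6 and 116 CPM in saline and 67.4, 64.6 and 60.9 CPM in microbead libraries. *Ttr* is also on the list of choroid, ciliary body and iris genes, so its values are not particular to the pigment epithelium. *Rgr*, an opsin-like photoisomerase of pigment epithelium and Müller glia, was at 4.2, 20.7 and 83.3 CPM and at 34.7, 24.0 and 40.9 CPM. For each of these 3 measures saline replicate 1 was the lowest library and saline replicate 3 the highest, as it was for *Rpe65*, *Lrat* and *Stra6*. Among the 6 defining markers taken singly, saline replicate 3 was the highest library for *Slc16a8* alone (11.1 CPM), while *Best1* and *Kcnj13* were highest in microbead replicate 1 and *Mlana*, *Pmel* and *Tyrp1* in microbead replicate 2. Of the 22 markers of the list, 0 passed the edgeR test, and the whole list, whose most abundant gene *Trpm1* is also found in ON bipolar cells, summed to 362 to 662 CPM in saline and 429 to 529 CPM in microbead libraries. The part of these markers in the member values was not tested.

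**Figure D2:**
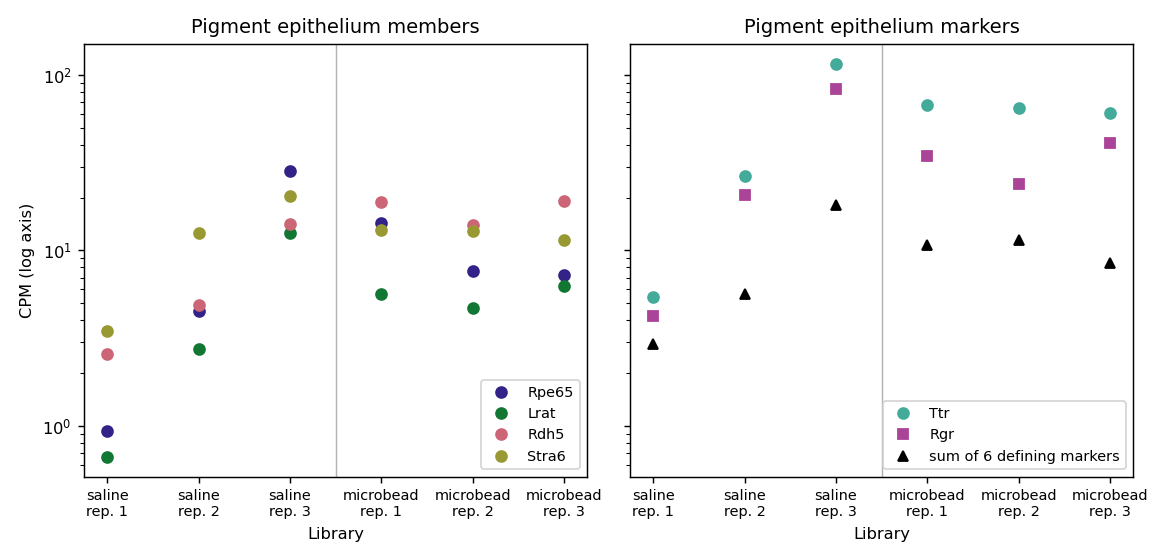
CPM (log axis) of *Rpe65*, *Lrat*, *Rdh5* and *Stra6* (left) and of *Ttr*, *Rgr* and the sum of 6 defining pigment epithelium markers (right) in each library. Each of the 7 measures is lowest in saline replicate 1, and each but *Rdh5* is highest in saline replicate 3, which for the marker sum rests on *Slc16a8* (11.1 of 18.1 CPM).

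Ratios within a library, chosen after the values were seen, show how far these genes kept together. The *Lrat* to *Ttr* ratio of CPM was 0.122, 0.103 and 0.108 in saline and 0.0840, 0.0727 and 0.103 in microbead libraries, a range of 1.68-fold where *Lrat* itself spanned 18.9-fold in saline. The *Rpe65* to *Lrat* ratio ranged from 1.14 to 2.55. *Rpe65* kept less close to the other 2 members, with a range of 5.14-fold to *Stra6* (0.269 to 1.38) and of 5.55-fold to *Rdh5* (0.365 to 2.02). The *Rdh5* to *Ttr* ratio varied more, from 0.121 to 0.468, and was highest in saline replicate 1, as was the *Stra6* to *Ttr* ratio (0.634, against 0.177 to 0.470 in the other libraries). The groups overlapped for each of these ratios.

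**Figure D3:**
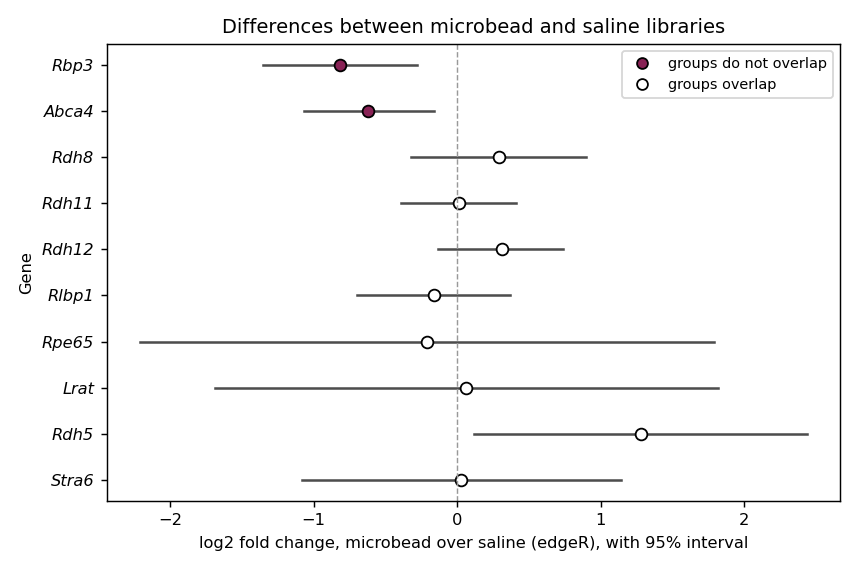
Log2 fold change of microbead over saline for each gene (points) with its 95% interval from edgeR (lines); filled points mark the 2 genes whose groups do not overlap. The intervals of *Rbp3* and *Abca4* lie below 0 and that of *Rdh5* above 0 before adjustment, and the widest are those of *Rpe65* and *Lrat*.

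Levels were compared between genes as CPM per kilobase of annotated exon. In saline retina the order was *Rbp3* (1222 ± 329), *Rlbp1* (197 ± 63.6), *Rdh12* (146 ± 15.4), *Abca4* (123 ± 23.7), *Rdh8* (51.6 ± 9.23), *Rdh11* (18.0 ± 1.03), *Rpe65* (5.84 ± 7.73), *Rdh5* (2.55 ± 2.17), *Stra6* (2.09 ± 1.47) and *Lrat* (0.996 ± 1.19; SD, n = 3 each). *Rlbp1*, *Rdh12* and *Abca4* overlapped as neighbors in this order, as did the 4 pigment epithelium genes from *Rpe65* to *Lrat*. In microbead retina *Rbp3* was at 694 ± 121, *Rdh12* at 180 ± 35.3, *Rlbp1* at 176 ± 19.2 and *Abca4* at 80.2 ± 10 CPM per kilobase (SD, n = 3 each). *Rdh12* and *Rlbp1* overlapped there, and so did *Abca4* and *Rdh8* (63.2 ± 22.2) and *Rdh5* (6.18 ± 1.05) and *Rpe65* (5.03 ± 2.10). The order and the overlaps depend on the length taken, here all annotated exons of a gene. The longest transcript is much shorter for *Abca4* (7263 against 12022 bases), *Rdh5* (1329 against 2809) and *Stra6* (3077 against 5829). With that length these genes would stand higher, and the order was not tested with it.

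Among the 4 dehydrogenases, *Rdh12* made up the largest share of the summed level per kilobase, 66.9 ± 3.23% in saline and 67.0 ± 8.59% in microbead retina (SD, n = 3 each). *Rdh8* followed with 23.7 ± 3.67% and 24.0 ± 9.41%, *Rdh11* with 8.29 ± 0.697% and 6.74 ± 0.792%, and *Rdh5* with 1.16 ± 0.949% and 2.30 ± 0.299%. For *Rdh5* and *Rdh11* the difference in means was larger than the SD of either group, but the groups overlapped. None of the 4 shares passed the test (two-sided exact permutation test, *p* = 0.2 for *Rdh5* and *Rdh11*, *p* = 1 for *Rdh8* and *Rdh12*, lowest adjusted *p* = 0.4 over the 4), in a design that cannot give a *p* under 0.1. With the longest transcript as length, the *Rdh11* share did not overlap between the groups (difference -1.61 percentage points, *p* = 0.1 from the same exact test). Microbead replicate 1 held the highest *Rdh12* share, 76.9%, and the lowest *Rdh8* share, 13.1%.

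**Figure D4:**
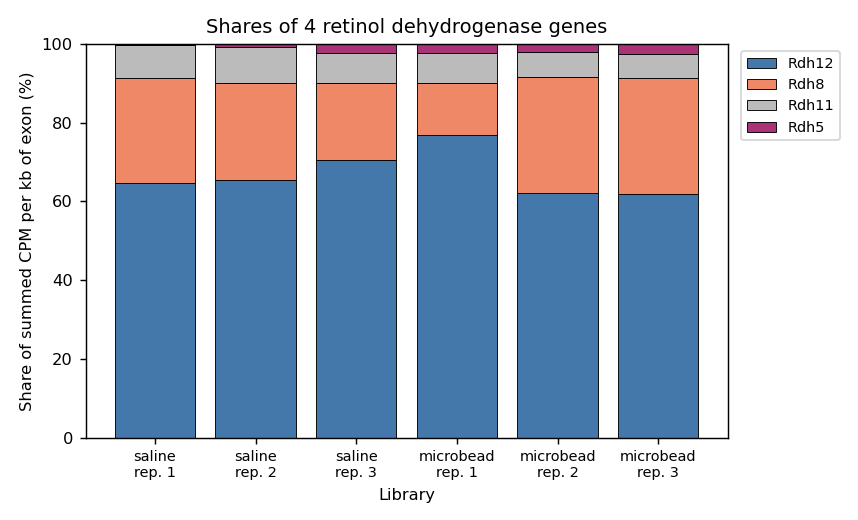
Share of each of the 4 retinol dehydrogenase genes in their summed CPM per kilobase of exon (%), stacked for each library. *Rdh12* takes 61.9 to 76.9% of each bar, and *Rdh5* 0.391 to 2.57%.

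Other genes of retinoid metabolism were examined from lists beside the 10 genes. Of 24 tested retinoid carriers, enzymes and photoisomerases, 1 was higher and 0 lower past the edgeR threshold, with a median log2 fold change of 0.02. The one was the dehydrogenase *Dhrs11* (1.25, 1.51 and 1.20 CPM in saline, 4.27, 2.89 and 2.92 CPM in microbead libraries; log2 fold change 1.35, adjusted *p* = 0.0441 from edgeR). *Rdh10*, which makes retinal for retinoic acid synthesis, was at 51.8, 53.3 and 86.7 CPM in saline and 45, 40.7 and 37.3 CPM in microbead retina (log2 fold change -0.64, adjusted *p* = 0.0879 from edgeR). *Rdh13*, a mitochondrial dehydrogenase, was at 31.4, 34.5 and 28.8 CPM in saline and 18.3, 22.0 and 24.6 CPM in microbead retina (log2 fold change -0.55, adjusted *p* = 0.0787 from edgeR). Both were named after their values were seen.

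Of 11 tested genes of retinoic acid synthesis, breakdown and reception, 0 passed (median log2 fold change -0.35). The most abundant, the retinoid X receptor gene *Rxrb*, was at 68.6 to 76.5 CPM in saline and 51.4 to 68.7 CPM in microbead libraries (adjusted *p* = 0.310 from edgeR). Of 7 visual pigment and shutoff genes, 1 passed, the cone arrestin *Arr3*, at 117, 110 and 65.1 CPM in saline and 252, 254 and 286 CPM in microbead retina (log2 fold change 1.44, SE 0.23, adjusted *p* = 0.0126 from edgeR). It was also the only one of 10 cone markers to pass. Of 8 genes of outer segment structure and trafficking, 1 passed, the phospholipid flippase *Atp8a2*, at 52.9, 58.5 and 59.2 CPM in saline and 13.8, 37.3 and 19.7 CPM in microbead retina (log2 fold change -1.27, SE 0.32, adjusted *p* = 0.0335 from edgeR).

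Among the markers of other cells, 4 of 10 endothelial genes were lower past the threshold, led by *Tie1* (log2 fold change -1.23, adjusted *p* = 0.0262 from edgeR) and *Esam* (-1.01, adjusted *p* = 0.0249 from edgeR). Of 9 tested choroid, ciliary body and iris genes, 1 was lower past the threshold, *Pltp* (-1.24, adjusted *p* = 0.0188 from edgeR). By sign alone, 7 of the 9 had a log2 fold change below 0 and 2 above (median -0.49). The list summed to 43.4, 71.5 and 182 CPM in saline and 91.7, 93.5 and 86.4 CPM in microbead libraries. Within these sums *Ttr*, which is also on the pigment epithelium list, held 5.45, 26.6 and 116 CPM and 67.4, 64.6 and 60.9 CPM. Neither of the 2 tested lens genes and none of the 10 ganglion cell genes passed. The most abundant of these were *Bfsp1* (adjusted *p* = 0.996 from edgeR) and *Nefl* (adjusted *p* = 0.439 from edgeR).

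The gene closest in pattern to a member, given here for 9 of the 10, was taken as the one with the highest Pearson's r of log2 CPM over the 6 libraries, among about 10350 genes with a mean of at least 10 CPM. For *Lrat* this was *Rgr* (r = 0.992), itself a gene of the retinoid list. It was *Rnf13* for *Rpe65* (0.989), *Gng2* for *Stra6* (0.994), *Mgst3* for *Rdh5* (0.978) and *Dram2* for *Rlbp1* (0.991). For the photoreceptor genes it was *Vps53* for *Rbp3* (0.994), *Slc7a4* for *Abca4* (0.993), *Ddx31* for *Rdh11* (0.998) and *1810037I17Rik* for *Rdh12* (0.993). These are descriptions over 6 libraries that share the group difference and the same scaling, and carry no test. Each r is the highest of about 10350 values over only 6 libraries, so it is high by selection. Pearson's r also leaves out the size of the changes: *Rnf13* ran from 78.4 to 138 CPM where *Rpe65* ran from 0.930 to 28.4 CPM. Among the members themselves, *Rpe65*, *Lrat* and *Stra6* were joined by r of 0.94 to 0.97, while r between *Rpe65* and *Rbp3* was 0.06.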

How the data were processed

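Polyadenylated RNA was sequenced as 100-bp paired ends from whole retina, 3 saline- and 3 microbead-injected, grouped by the treatment in the sample records. The authors aligned reads with STAR (2.5.3a) to GRCm38.p5 with GENCODE annotation, counted them per gene with featureCounts (1.15.2), and deposited the counts without normalization. Treatment of reads that map to several places is not given in the sources used here. The deposited table also holds the authors' DESeq2 comparison (mean signal, log2 fold change, linear fold change or ratio, p-value, adjusted p-value and a mark of calls), which was not used.

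Low genes were removed by filterByExpr at its defaults (count 10, total 15). After TMM scaling, edgeR 4.0.16 in R 4.3.3 fitted its quasi-likelihood model, tested both directions, and Benjamini-Hochberg adjustment ran over all tested genes. Standard errors are the log2 fold change divided by the square root of F. Steps were tested on simulated data. Log2 CPM used a prior count of 2. Lengths and positions were from GENCODE vM21, which matched 99.5% of genes by identifier; promoters were from RefSeq. Limits from 3 counts cover counting error only. The members, lists and tests were chosen with earlier results of these data known. Named were all members, up to 2 genes per list with the largest change past the threshold and at least 1 CPM (otherwise the most abundant), the gene closest in pattern to each member, and genes needed for a result. Values of some genes are not reported here. Alternatives were RLE and upper-quartile scaling, DESeq2 1.42.0, dropping mitochondrial genes, dropping the filter, a minimum of 10 counts per library, blocking on replicate number, correcting GC content and length (splines, 5 degrees of freedom), other thresholds, another gene length, and each library left out.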

Additional observations from a re-analysis of the deposited data

How the results depend on the processing

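Of the 10 genes, 3 passed with DESeq2 (*Rbp3*, *Abca4* and *Rdh5*), 2 with edgeR without the filter (*Rbp3* and *Rdh5*), 1 with the GC and length offset (*Rbp3*), and 0 to 1 with each library left out (*Rbp3* without saline replicate 1, *Rdh5* without saline replicate 3). With the other settings 0 passed. Over all genes, 2261 calls became 3513 without the filter, 3556 with DESeq2, 905 with the replicate block, 87 at an adjusted *p* under 0.01, 1248 with a fold change over 2, 2741 with the GC and length offset, and 46 (without microbead replicate 3) to 2621 (without saline replicate 1) with each library left out, with 1480 without saline replicate 3. Directions turned in genes near 0 or with a wide saline spread. Leaving out each library gave ranges of -0.15 to 0.10 for *Rdh11*, -0.36 to 0.11 for *Rlbp1*, -0.75 to 1.83 for *Rpe65*, -0.46 to 1.69 for *Lrat* and -0.42 to 0.63 for *Stra6*. *Rdh11* was at -0.11 with the GC and length offset, and *Rpe65* at 0.80 with the replicate block. The log2 fold changes of *Rbp3*, *Abca4*, *Rdh5*, *Rdh8* and *Rdh12* kept their sign in each alternative fit and with each library left out. The labels do not say whether same-numbered libraries share more than a number. The correlations of their deviations were -0.035, 0.14 and 0.010, which cannot settle it, and the block changed no call among the 10 genes. With the longest transcript as length, the difference in share was 2.20 percentage points for *Rdh5* (1.13 with all exons) and -0.662 for *Rdh12* (0.0893), and the *Rdh11* share no longer overlapped between the groups (-1.61, against -1.55). For the changes between settings, the cause was not tested. The 3 libraries a group limit what can be seen in the pigment epithelium genes, where the interval of *Rpe65* ran from -2.21 to 1.79.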
